A study of Mus musculus with 4 samples.

Results

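A set of 8 genes of extracellular adenosine production, breakdown, transport and sensing were followed in ATDC5 cells, a mouse chondroprogenitor line, before and after chondrogenic culture. They were Entpd1, Entpd2, Nt5e, Ada, Slc29a1, Adora1, Adora2a and Adora2b. The 8 genes were selected on measured values of these same arrays, the log2 intensity of the brightest single-gene probe set at day 15 against day 0. Their change between the days is therefore given as a description without a test. Of the 8 genes, 5 were matched to a probe set of their own among the 19938 genes measured, each by 1 probe set: Entpd1, Entpd2, Nt5e, Ada and Slc29a1. The adenosine receptor genes Adora1, Adora2a and Adora2b were not analysed here. No filter on low values was applied in the main comparison, so all 5 entered it.

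Adenosine outside the cell is made in steps. The ectonucleoside triphosphate diphosphohydrolases, among them CD39 (Entpd1) and the ADP-releasing Entpd2, remove phosphates from released ATP, and the GPI-anchored ecto-5'-nucleotidase CD73 (Nt5e) turns the resulting AMP into adenosine. Adenosine then acts on G protein-coupled receptors that raise or lower cyclic AMP, is carried across the membrane by the equilibrative transporter ENT1 (Slc29a1), or is deaminated to inosine by adenosine deaminase (Ada). In cartilage this route is known for its link to ATP release by loaded chondrocytes and, through the same pool of ATP, to the pyrophosphate that restrains mineralization, and CD73 is a standard surface marker of mesenchymal stromal cells.

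The day 0 group was undifferentiated ATDC5 cells in basal serum medium with ascorbic acid, and the day 15 group was cells given the same medium with insulin, transferrin and selenite for 15 days. Each day had 2 samples, numbered 1 and 2, with total RNA on 1 whole-transcript array per sample. No sample was kept for 15 days without the supplement, so time in culture, supplement and differentiation cannot be told apart. Whether the 2 samples of a day came from separate cultures is not in the labels, and every p-value therefore covers the spread of these 4 samples, possibly a technical one. All log2 values below are log2 of intensity plus 1 after quantile normalization, on which the change of dim genes looks smaller. In bulk RNA, a change in the share of cells and a change in RNA per cell cannot be told apart.

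The labelled cell type was checked against marker lists. Of 12 chondrocyte markers 7 rose by the limma test over all genes and none fell, with 9 higher and none lower at an unadjusted p below 0.05, whereas none of the 9 measured mesenchymal stromal surface markers passed in either direction (1 higher and 1 lower unadjusted). The arrays of replicate 1 stood apart on both days in most macrophage and microglia markers and in the myelin genes Mbp and Mobp. Of 15 macrophage and microglia markers, 12 were higher in replicate 1 than in replicate 2 on both days. For 8 of them the margin was at least 1 log2 on both days, as for 0.341% of all genes. Their deposited intensities summed to 11621 (day 0) and 12499 (day 15) in replicate 1, against 3196 and 4830 in replicate 2. C1qb, a complement chain made by macrophages, was at 11.36 and 11.11 log2 in replicate 1 of day 0 and day 15 and at 6.09 and 5.80 in replicate 2. Csf1r, the receptor that defines the macrophage lineage, was at 10.31 and 10.19 in replicate 1 and 6.71 and 6.49 in replicate 2, while Adgre1 and Ptprc were not higher in replicate 1. Of 9 neural and myelin markers, 6 were higher in replicate 1 on both days. The share of all genes higher there by any margin was not taken, so nothing is read from the counts of 12 and 6. The myelin genes Mbp, by 2.83 and 2.81 log2 at day 0 and day 15, and Mobp, by 2.40 and 2.67, were the ones that exceeded 1 log2 on both days. The myelin genes Mag (0.31 and −0.15) and Mog (−0.25 and 0.25) were not higher in replicate 1 on both days. No marker was at 0 on any array. Endothelial markers (10 measured) and lymphocyte markers (8 measured) all had mean levels below the median of all genes, 8.72 log2. The difference between the days was therefore also taken from the replicate 2 arrays alone, as a value with no test.

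The stretches of DNA just before the start sites of Nt5e and Ada are shown because these genes had the largest differences between the days, in opposite directions. Both stretches are the 250 bases before the RefSeq start on build GRCm38.p6, printed 5′ to 3′ on the gene's strand. Nt5e is at chr9:88327359-88327608 on the plus strand and Ada at chr2:163750240-163750489 on the minus strand. Capitals mark any match, on either strand, to the Sp1 box GGGCGG, the hypoxia response core ACGTG or GCGTG, the cyclic AMP response element TGACGTCA, its short form TGACG, the AP-1 site TGANTCA or the TATA box TATAAA.
Nt5e: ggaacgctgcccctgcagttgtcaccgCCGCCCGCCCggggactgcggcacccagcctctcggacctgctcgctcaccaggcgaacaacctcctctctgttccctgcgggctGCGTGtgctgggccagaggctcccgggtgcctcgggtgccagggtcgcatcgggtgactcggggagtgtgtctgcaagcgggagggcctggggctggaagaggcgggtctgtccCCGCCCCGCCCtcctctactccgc
Ada: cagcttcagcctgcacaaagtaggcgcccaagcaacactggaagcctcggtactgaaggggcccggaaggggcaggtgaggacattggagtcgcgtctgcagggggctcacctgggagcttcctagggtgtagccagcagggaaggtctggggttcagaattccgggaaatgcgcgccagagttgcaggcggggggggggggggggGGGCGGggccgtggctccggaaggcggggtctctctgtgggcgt
The Nt5e window held 4 matches to the Sp1 box, in 2 overlapping pairs, and 1 match to the hypoxia response core at 138 to 134 bases before the start. The Ada window held 1 match, to the Sp1 box, at 44 to 39 bases before the start. Neither window held the other motifs. Among 32851 RefSeq windows of this length, 32.7% held the Sp1 box, 38.6% the hypoxia response core, 17.8% the short form TGACG, 12.4% the TATA box, 6.75% the AP-1 site and 1.55% the full cyclic AMP response element. The short form TGACG lies inside each full element and is counted in both. The base composition was 72.0% G and C for Nt5e and 67.2% for Ada. These matches describe the letters only.

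Nt5e had the largest difference of the 5 genes. Its deposited intensities were 564 and 919 at day 0 and 3533 and 3604 at day 15. On the log2 scale it was at 9.21 and 9.87 at day 0 and at 11.77 and 11.81 at day 15. Both day 15 arrays lay above both day 0 arrays, and the nearest arrays of the different days were 1.91 log2 apart. The group means were 9.54 ± 0.47 and 11.79 ± 0.02 (SD, n = 2 arrays per day), a difference of 2.25 ± 0.25 log2 (SE), or 4.76-fold. Most of the spread lay between the 2 day 0 arrays, and the replicate 2 arrays alone gave 1.94 log2. The difference stood 143rd from the top among the differences of 19938 genes.

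The 2 enzymes upstream of CD73 were dim, both with a mean level below the median of all genes. Entpd1, which takes ATP and ADP to AMP, was at 8.14 and 6.36 at day 0 and at 8.17 and 6.76 at day 15 (log2, replicate 1 then replicate 2). The days overlapped fully, and the high arrays were those of replicate 1. Replicate 1 exceeded replicate 2 by 1.78 log2 at day 0 and by 1.41 at day 15, against a day 15 minus day 0 difference of 0.22 ± 0.69 (SE). The difference was 0.03 within replicate 1 and 0.40 within replicate 2. Leaving out 1 array turned its direction: it became −0.68 when replicate 2 of day 0 was dropped and −0.49 when replicate 1 of day 15 was, and 0.91 and 1.12 without the other 2 arrays. Of 19938 genes, 68 (0.341%) exceeded replicate 2 by 1 log2 or more in replicate 1 on each day, and 40 were lower in replicate 1 by that margin. Entpd1 was 1 of the 68 higher genes. Of these 68, 8 were from the list of 15 macrophage and microglia markers and 2 were the myelin genes Mbp and Mobp. CD39 is itself a surface protein of macrophages and microglia, and the part of such cells, or of the source of the myelin transcripts, in its values was not tested. Entpd2, which takes ATP mainly to ADP, was at 6.56 and 6.59 at day 0 and at 6.91 and 6.76 at day 15. The day 15 arrays lay above the day 0 arrays by at least 0.18 log2, and the difference was 0.26 ± 0.16 (SE), with deposited intensities of only 92 to 111.

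**Figure D1:**
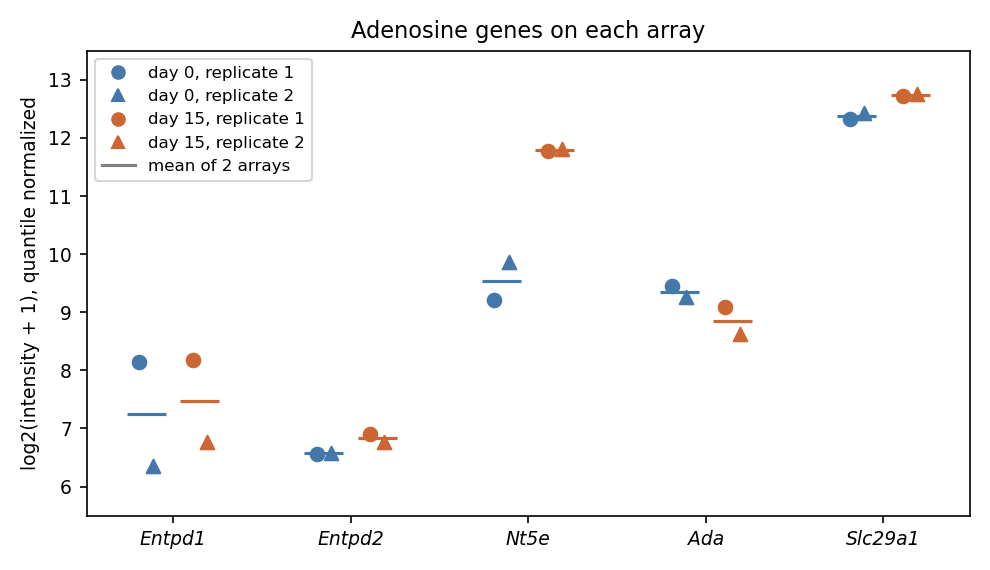
The 5 measured genes by array: quantile-normalized log2(intensity + 1) on the vertical axis, blue for day 0, orange for day 15, circles for replicate 1, triangles for replicate 2 and lines for the mean of 2 arrays. Nt5e is at 9.21 and 9.87 at day 0 and at 11.77 and 11.81 at day 15, whereas Entpd1 separates by replicate number and not by day. Levels of different genes come from different probe sets and are not compared.

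Ada, the enzyme that removes adenosine, was the only measured gene with both day 15 arrays below both day 0 arrays. It was at 9.44 and 9.26 at day 0 and at 9.09 and 8.62 at day 15. The gap between the nearest arrays of the different days was 0.17 log2, close to the SD between arrays of a day, whose median over all genes was 0.18. The means were 9.35 ± 0.13 and 8.86 ± 0.33 (SD, n = 2), a difference of −0.50 ± 0.22 log2 (SE), and the replicate 2 arrays alone gave −0.64.

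Slc29a1, the transporter that carries adenosine both ways across the membrane, was bright on every array, with deposited intensities of 5049 and 5470 at day 0 and of 6821 and 6976 at day 15. On the log2 scale it was at 12.32 and 12.43 at day 0 and at 12.72 and 12.76 at day 15. The days did not overlap, the nearest arrays being 0.29 log2 apart. The difference was 0.36 ± 0.16 log2 (SE), or 1.29-fold, and 0.32 in the replicate 2 arrays.

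Across the 5 measured genes, both day 15 arrays were above both day 0 arrays for 3 (22.3% of all genes) and below them for 1 (17.8% of all genes), and the days overlapped for Entpd1. The median difference was 0.26 log2, beside 0.02 over all genes. In the limma fit over all genes 342 of 19938 passed an adjusted p of 0.05 (1.72%), 260 of them higher (1.3%) and 82 lower (0.411%) at day 15. Since the 5 genes were chosen on this contrast, no call is given for them, and nothing is read from their counts. The direction of Nt5e, Entpd2, Ada and Slc29a1 was the same under each of 10 other settings of scaling, pseudocount, pairing, probe set averaging and left-out arrays. Pairing and probe set averaging could not change these differences. Each day held both replicate numbers, and each gene had 1 probe set. The days did not overlap for Nt5e, Entpd2, Ada and Slc29a1. Leaving out 1 array could therefore not turn their direction, apart from shifts through repeated normalization. The unchanged direction with an array left out is thus not read as support. Nt5e ranged from 1.92 to 2.58 log2, Ada from −0.72 to −0.27, Slc29a1 from 0.30 to 0.42 and Entpd2 from 0.16 to 0.33.

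**Figure D2:**
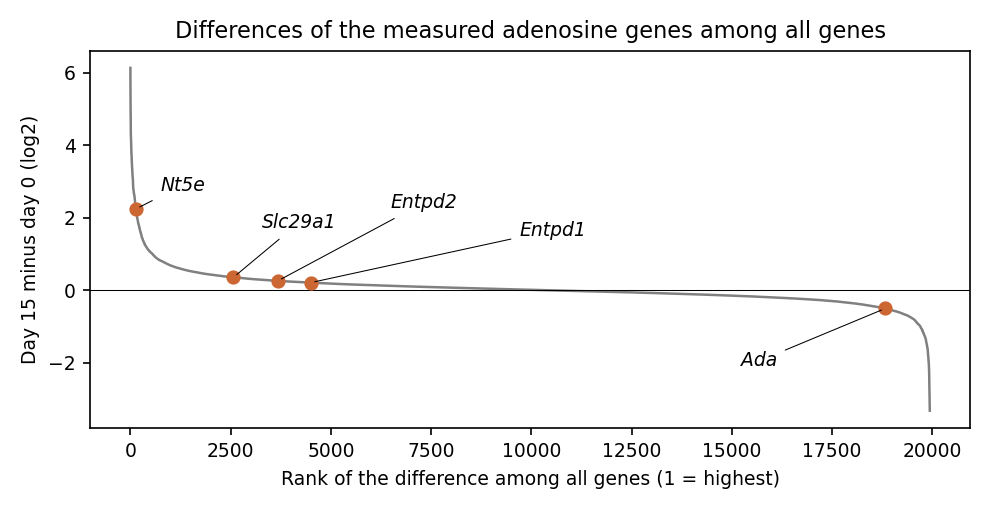
Day 15 minus day 0 difference (log2) of all 19938 genes, ordered from highest to lowest (grey line), with the 5 measured adenosine genes marked. Nt5e sits on the steep upper end at 2.25 log2, and the other 4 lie between −0.50 and 0.36 on the flatter part of the curve.

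**Figure D3:**
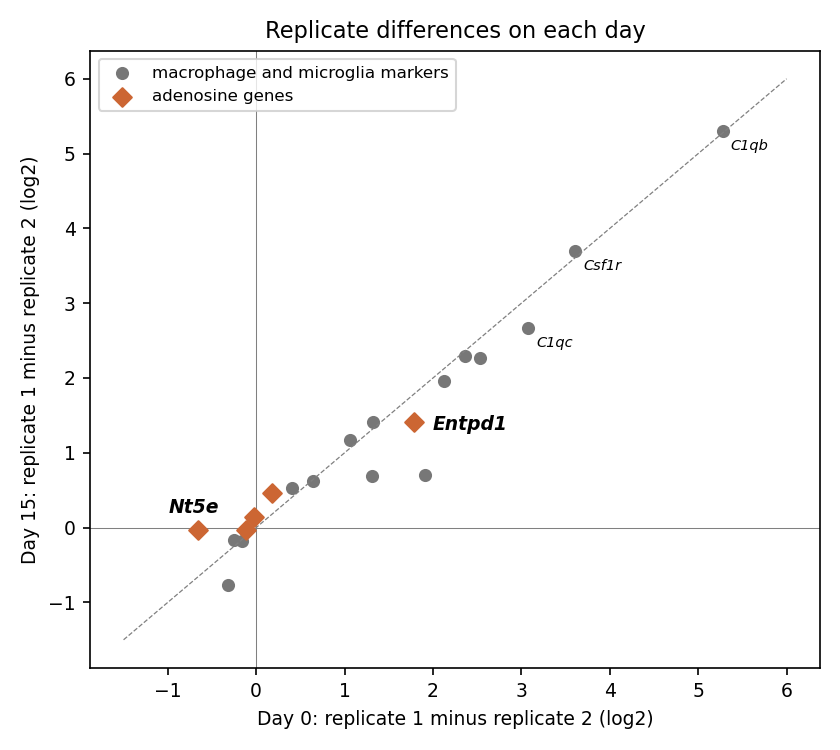
Replicate 1 minus replicate 2 (log2) at day 0 on the horizontal axis and at day 15 on the vertical axis, for the 15 macrophage and microglia markers (grey circles) and the 5 adenosine genes (orange diamonds), with a dashed line of equality. Entpd1 lies at 1.78 and 1.41 among the markers that are higher in replicate 1 on both days, while Nt5e lies at −0.66 and −0.03.

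Genes whose values followed the same course over the 4 arrays were sought by the distance between log2 values, each gene centred on its own mean, among the 9969 genes at or above the median level. Nearest to Nt5e were Lama4, a laminin chain (distance 0.216), the stress kinase Map3k5 (0.246) and Chn2, a Rac GTPase-activating protein (0.282). Lama4 was at 8.98 and 9.84 at day 0 and at 11.84 and 11.71 at day 15. Nearest to Ada were Il34, a ligand of the Csf1 receptor (0.0244), the endocytosis protein Ehd4 (0.0404) and Tbl3 (0.0589). With 4 arrays such likeness is a description.

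Of 142 other listed genes of adenosine and purine signaling, 132 were measured. By limma with adjustment over all genes 5 rose and none fell, beside 15 higher and 6 lower at an unadjusted p below 0.05. Of all genes, 1.3% rose and 0.411% fell by the adjusted test. The unadjusted counts, here and for single lists, are given without the share over all genes, so nothing is read from them. All lists were chosen with earlier results of these data known, so the adjusted counts are not an independent test of these genes. The median difference of the 132 was 0.07 log2. The 5 that rose were spread over the enzymes of extracellular nucleotides, ATP release, cyclic AMP sensing, cyclic AMP breakdown and the genes induced by cyclic AMP.

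Among 13 measured ectonucleotidases only Enpp3 rose. Enpp1 and Cd38, also listed, were not analysed here. It encodes a phosphodiesterase of the cell surface that splits extracellular ATP to AMP and pyrophosphate. Enpp3 was at 6.62 and 6.55 at day 0 and at 10.24 and 9.82 at day 15, a difference of 3.44 ± 0.20 log2 (SE; limma adjusted p = 0.00294). Its day 0 arrays were dim and its day 15 arrays well separated from them, and it kept its call under each of the 13 other settings in which it was tested (limma adjusted p up to 0.0397). Entpd6, a relative of CD39, was at 10.13 ± 0.20 at day 0 and 9.43 ± 0.45 at day 15 (SD, n = 2; limma adjusted p = 0.36).

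Of 11 genes tied to ATP and pyrophosphate release, Panx3, a pannexin channel of chondrocytes and osteoblasts that lets ATP out, rose by 4.34 ± 0.18 log2 (SE; limma adjusted p = 0.00151). It was at 8.90 and 9.18 at day 0 and at 13.31 and 13.44 at day 15, and it kept its call under each of 14 other settings. Calhm5, of the calcium homeostasis modulator channel family, was at 8.86 and 9.73 at day 0 and at 11.10 and 9.77 at day 15, where 1 of the day 15 arrays was far above the other (limma adjusted p = 0.451).

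None of the 29 measured genes of intracellular nucleotide and adenosine metabolism passed with limma, and 2 were higher and none lower at an unadjusted p below 0.05. The largest differences were those of Xdh, the xanthine oxidoreductase at the end of purine breakdown, at 1.19 ± 0.37 log2 (SE; limma adjusted p = 0.267), and of the mitochondrial adenylate kinase Ak4, at 1.08 ± 0.42 (limma adjusted p = 0.391). Xdh passed without day 0 replicate 1 (1.77 log2; limma adjusted p = 0.0298) and Ak4 without day 0 replicate 2 (1.74 log2; 0.0331). None of the 6 other nucleoside transporters passed, none of them even unadjusted. Slc29a2, the equilibrative transporter closest in role to Slc29a1, was at 9.05 ± 0.49 at day 0 and 8.47 ± 0.22 at day 15 (SD, n = 2; limma adjusted p = 0.507), and the lysosomal Slc29a3 was at 11.07 ± 0.12 and 10.93 ± 0.34. Their p-values do not show that they stayed level.

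None of the 15 measured P2 receptors of extracellular nucleotides passed with limma, and 4 were higher and none lower unadjusted. The ATP-gated channel P2rx4 was at 11.27 and 10.84 at day 0 and at 12.15 and 11.62 at day 15 (limma adjusted p = 0.264), and P2rx6 was at 8.36 and 8.30 and then at 9.05 and 8.88 (limma adjusted p = 0.198). For both, the days did not overlap, as was so in this direction for 22.3% of all genes.

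Downstream, 1 of 25 measured G protein, adenylyl cyclase and protein kinase A genes rose. Rapgef3, the cyclic AMP-activated exchange factor EPAC1, rose by 1.56 ± 0.20 log2 (SE; limma adjusted p = 0.0294), from 7.45 and 7.29 to 8.72 and 9.13. Adcy1, a calmodulin-stimulated adenylyl cyclase, was at 8.97 and 9.83 at day 0 and at 7.50 and 7.61 at day 15, a difference of −1.85 ± 0.30 that missed the threshold (limma adjusted p = 0.0537). It passed with median centring (0.0411), with an intensity trend and robust hyperparameters (0.0246), with the replicate number as a block (0.0226), without day 0 replicate 1 (0.0121) and without the genes higher in replicate 1 on both days (0.0448). Pde7b, a phosphodiesterase specific for cyclic AMP, rose by 3.53 ± 0.50 log2 (SE; limma adjusted p = 0.0364) as the only 1 of 16 phosphodiesterases. It was at 6.12 and 6.23 at day 0 and at 10.51 and 8.90 at day 15, so the day 15 arrays differed from each other by more than 1 log2. Pde1b, a calmodulin-dependent phosphodiesterase, was at 9.52 ± 0.31 and 10.54 ± 0.07 (SD, n = 2; limma adjusted p = 0.107).

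Of 17 genes of the CREB family and genes induced by cyclic AMP, Ppargc1a, a transcriptional coactivator, rose by 1.94 ± 0.26 log2 (SE; limma adjusted p = 0.0297), from 7.09 and 6.92 to 8.62 and 9.27. Fos, an immediate early gene, was at 10.78 and 7.99 at day 0 and at 11.89 and 11.64 at day 15 (limma adjusted p = 0.333), and it passed when the first of these arrays was left out (3.76 log2; limma adjusted p = 0.0031). Rapgef3 lost its call when replicate 1 of day 0 (limma adjusted p = 0.0571), replicate 2 of day 0 (0.0944) or replicate 2 of day 15 (0.0836) was left out. Pde7b lost it when either day 0 array was left out (limma adjusted p = 0.0531 and 0.0584). Ppargc1a lost it when replicate 2 of day 0 (limma adjusted p = 0.0768) or of day 15 (0.0585) was left out. All 3 also lost it when all probe sets were tested together (limma adjusted p = 0.141 to 0.183). In the replicate 2 arrays alone the 5 genes differed by 3.27 (Enpp3), 4.27 (Panx3), 1.84 (Rapgef3), 2.67 (Pde7b) and 2.36 (Ppargc1a) log2.

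**Figure D4:**
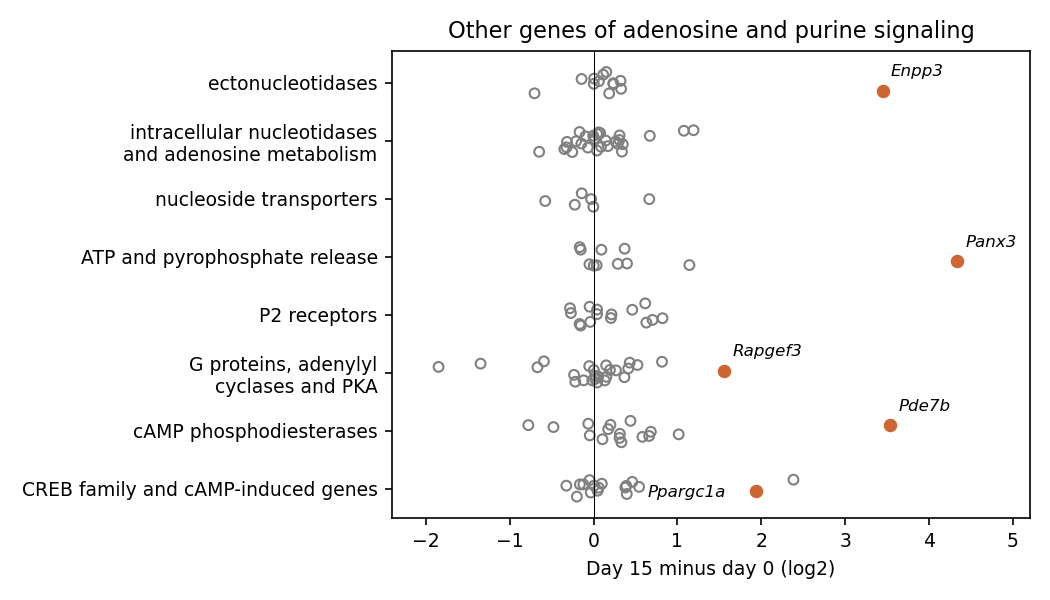
Day 15 minus day 0 difference (log2) of the 132 other genes of adenosine and purine signaling, 1 row per list, points spread vertically at random within a row. Filled orange points passed the limma test over all genes, open grey points did not; the 5 filled points are Enpp3, Panx3, Rapgef3, Pde7b and Ppargc1a, all at 1.56 log2 or more.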

How the data were processed

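Gene expression was measured on 4 arrays of biotin-labelled single-stranded DNA made from total RNA, 2 at day 0 and 2 at day 15. The deposited values were linear intensities between 0.72 and 23103 per probe set, judged from the values, and their background correction, probe summary and normalization are not stated by any label or file used. The build was mm9, per the submitters' processing notes. Of 35512 probe sets, 21789 had 1 gene symbol, 1621 had several and 12102 had none in the platform annotation. The brightest single-symbol probe set stood for each of 19938 genes. Array medians differed by 0.199 log2, above a tolerance of 0.1, so log2 values (pseudocount 1) were quantile normalized over all probe sets.

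Genes were tested with limma 3.58.1 (R 4.3.3, lmFit and eBayes, group as the only term) with Benjamini-Hochberg adjustment over all genes, and called below 0.05. The fit was also run on simulated data with independent noise on each array. Same-numbered samples of the real data deviated together, so that run does not cover this dependence. The genes studied and all lists were chosen with earlier results of these data known. Named genes were all members, up to 4 called genes per list, or the 2 largest differences among genes whose higher day mean was at or above the median level of all genes where fewer than 2 were called (so 1 beside a single called gene), and the 3 nearest patterns. Xdh, Slc29a2, P2rx6 and Adcy1 met that limit only through the day on which they were high. Genes called only with an array left out were not added. C1qb, Csf1r, Adgre1, Ptprc, Mbp, Mobp, Mag and Mog were named after their values were seen. Neural and adipocyte markers (9 and 6 measured) were also listed, and none passed; 0 and 1 were below 0.05 unadjusted. Promoter windows are from RefSeq (GRCm38.p6), found for 7 of the 8 genes. Figures were drawn with matplotlib 3.10.9.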

Additional observations from a re-analysis of the deposited data

How the results depend on the processing

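Counts of called genes depended on the setting. Over all genes, 260 higher and 82 lower became 440 and 188 with the replicate number as a block, and 49 and 2 when all probe sets were tested together (69 and 5 counted as probe sets). Leaving out 1 array gave 146 to 223 higher and 28 to 63 lower. Of the other pathway genes, 5 were called higher, against 1 (Panx3) among genes at or above the median level, where Enpp3, Rapgef3, Pde7b and Ppargc1a were not tested, 2 with all probe sets together (Enpp3 and Panx3) and 3 to 5 with 1 array left out. Those 3 to 5 were not always the same genes: without day 0 replicate 1 they were Enpp3, Panx3, Ppargc1a, Fos and Xdh, and without day 0 replicate 2 they were Enpp3, Panx3 and Ak4. The count lower went from 0 to 1 (Adcy1) with median centring, with trend and robust hyperparameters, with the replicate block and without the genes higher in replicate 1, and was 0 to 1 with 1 array left out. Slc29a3, not called, ranged from −0.38 to 0.10 log2 with 1 array left out. Such fits take the spread from the day that kept both arrays and assume it for the single one. Same-numbered samples deviated together across genes (correlation 0.403), but the labels do not say what a number shares, so the block was not used as the main fit. The analysis of replicate 2 arrays alone was chosen after seeing the data. The number of arrays, 2 per day, limits every value, and without detection calls the dim values of Entpd1 and Entpd2 may lie at background.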
